A study of Saccharomyces cerevisiae with 4 samples.

Results

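The genes described here handle oxidants, electrophiles and protein thiols in budding yeast (Saccharomyces cerevisiae). They are the glutathione transferase genes GTT1 and GTT2, the old yellow enzyme genes OYE2 and OYE3, the glutathione peroxidase gene GPX2, the glutaredoxin genes GRX1 and GRX2, the thioredoxin gene TRX2, the thioredoxin reductase gene TRR1 and the glutathione synthesis gene GSH1. They were picked out by systematic name, as 10 of the 7126 features of the count table, with earlier results of these data known. Polyadenylated RNA was sequenced from wild type (strain MH1006) and from the ulp1-I615N mutant (strain MH1018). ULP1 encodes a protease that processes the precursor of SUMO, a protein tag, and removes the tag from other proteins. Each group held 2 libraries, and both strains were MATa haploids grown to mid-log phase in YPD, a rich glucose medium, at 30°C. In the labels both strains carry ura3-52, trp1-289 and a leu2 allele together with ade2-delta, ade3-delta and lys1::kanMX4. Each group is a single strain, and nothing in the labels says that its libraries came from separate cultures, so p-values rest on the spread of these libraries alone, and that spread may be technical. A bulk library also cannot tell a change in every cell from a change in the share of cells that express a gene.

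Glutathione is a small thiol peptide that buffers the redox state of the cell. Its synthesis begins with the ligase encoded by GSH1. Glutathione transferases couple it to electrophiles, glutathione peroxidases reduce peroxides, and glutaredoxins use it to reduce disulfides in proteins. Thioredoxins reduce proteins and peroxiredoxins in a parallel route and are recharged by thioredoxin reductase with electrons of NADPH. Old yellow enzymes are flavin-containing NADPH oxidoreductases that reduce unsaturated carbonyl compounds. Several of these genes are known targets of Yap1, the oxidant-sensing activator, and some also of Msn2 and Msn4, the activators of the general stress response.

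The sequences before the start codons are shown for OYE3 and OYE2, GTT1 and GTT2, and TRX2 and TRR1, because these are related or partner genes that received different calls in the mutant. Each is the stretch of 300 bases before the start codon, read 5′ to 3′ on the strand of the gene from the RefSeq R64 assembly, where 6036 of the 6048 matched features have the start and end of the deposited table. Capitals mark TTACTAA or TGACTAA, forms of the Yap1 binding site, and AGGGG, the core of the stress element bound by Msn2 and Msn4. On the opposite strand the Yap1 forms read TTAGTAA for the first and TTAGTCA for the second, and the stress element reads CCCCT.
OYE3 (chrXVI:227372-227671, minus strand): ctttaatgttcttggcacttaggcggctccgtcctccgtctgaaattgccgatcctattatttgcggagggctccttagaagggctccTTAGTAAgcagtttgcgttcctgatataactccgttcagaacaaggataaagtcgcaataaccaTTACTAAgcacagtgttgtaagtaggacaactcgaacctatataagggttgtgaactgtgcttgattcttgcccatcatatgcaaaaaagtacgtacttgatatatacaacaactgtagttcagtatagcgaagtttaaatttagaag
OYE2 (chrVIII:462202-462501, plus strand): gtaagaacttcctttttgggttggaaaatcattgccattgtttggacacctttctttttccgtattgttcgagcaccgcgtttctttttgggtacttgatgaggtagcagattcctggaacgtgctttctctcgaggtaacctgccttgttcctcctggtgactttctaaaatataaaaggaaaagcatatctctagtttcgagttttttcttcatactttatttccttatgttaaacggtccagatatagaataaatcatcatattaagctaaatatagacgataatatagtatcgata
GTT1 (chrIX:424514-424813, minus strand): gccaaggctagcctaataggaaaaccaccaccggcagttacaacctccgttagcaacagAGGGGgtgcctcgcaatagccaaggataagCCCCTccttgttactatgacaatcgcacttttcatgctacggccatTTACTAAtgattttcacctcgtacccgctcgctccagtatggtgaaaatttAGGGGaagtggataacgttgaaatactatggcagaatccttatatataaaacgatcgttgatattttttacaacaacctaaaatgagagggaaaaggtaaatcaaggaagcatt
GTT2 (chrXII:21840-22139, minus strand): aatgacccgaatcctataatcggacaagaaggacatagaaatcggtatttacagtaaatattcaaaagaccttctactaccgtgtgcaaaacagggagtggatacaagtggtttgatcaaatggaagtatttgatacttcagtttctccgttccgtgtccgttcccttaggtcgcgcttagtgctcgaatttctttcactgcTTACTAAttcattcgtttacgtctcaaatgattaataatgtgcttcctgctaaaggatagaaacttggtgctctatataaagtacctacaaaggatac
TRX2 (chrVII:913228-913527, minus strand): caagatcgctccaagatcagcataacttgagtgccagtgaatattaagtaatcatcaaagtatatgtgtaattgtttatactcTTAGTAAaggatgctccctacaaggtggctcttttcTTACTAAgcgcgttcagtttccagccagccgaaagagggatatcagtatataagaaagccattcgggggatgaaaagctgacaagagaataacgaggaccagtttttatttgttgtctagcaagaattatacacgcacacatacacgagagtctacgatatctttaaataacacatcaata
TRR1 (chrIV:1182999-1183298, plus strand): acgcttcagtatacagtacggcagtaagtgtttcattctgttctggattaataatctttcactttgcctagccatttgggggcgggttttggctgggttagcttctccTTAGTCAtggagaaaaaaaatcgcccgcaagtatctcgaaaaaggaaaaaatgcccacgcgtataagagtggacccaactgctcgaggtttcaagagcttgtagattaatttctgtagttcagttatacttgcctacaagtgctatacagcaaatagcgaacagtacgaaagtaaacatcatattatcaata

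OYE3 and TRX2 each held the first Yap1 form in both orientations, at 148 and 212 bases before the start codon in OYE3 and at 181 and 217 in TRX2, counted to the first base of the match. GTT1 held that form at 165 bases and the stress element at 114, 211 and 241 bases. GTT2 held the first Yap1 form at 98 bases and TRR1 the second at 192, whereas the window of OYE2 held no match and its nearest match lay at 327 bases. Over the 10 genes, 7 had a Yap1 form within 300 bases, against 11.2% of 5987 promoters of that length, and 4 had AGGGG (GPX2, GRX1, GRX2 and GTT1), against 22.2%. Within 500 bases, 9 of the 10 had a Yap1 form, GRX1 being the exception, against 17.0% of 5986 promoters. The window of TRX2 runs into the neighbouring gene YGR210C, and that of GRX2 lies within EMI1 (YDR512C) on the other strand. Known Yap1 targets are among the genes listed, so these shares are a description. Of the 7 genes with a Yap1 form within 300 bases, 5 were called higher in the mutant, beside 26.4% of all tested genes. So were 2 of the 3 without one there, GRX1 and GSH1. GSH1 held TTAGTCA at 384 bases and lies on chromosome X, where 90.1% of tested genes were called higher. All 4 genes with AGGGG within 300 bases were called higher. Without AGGGG there, OYE3, TRX2 and GSH1 were called higher, OYE2 and TRR1 lower, and GTT2 neither. A link of these motifs to the calls was not tested.

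The totals of counted fragments ran from 13244131 to 26723470 per library, and all 10 genes passed the filter on low counts. The transcript of the mutated gene, ULP1, was at 74.4 and 66.8 CPM (counts scaled to the library total after TMM normalization) in wild type and at 79.7 and 74.4 CPM in the mutant. It was not called (log2 fold change 0.12 ± 0.08 SE, edgeR adjusted p = 0.197), but was with library totals as the only scaling (0.26, adjusted p = 0.0248). A point mutation need not alter its transcript, so this does not check the labels. LYS1, disrupted in both strains, had 4 or 5 counts in each library. ADE2 and ADE3 had 3116 to 7104 and 1368 to 3250 counts, although the labels list both as deleted. The summed level of 6 markers of mating type a was 1152 to 1233 CPM, and that of 4 markers of mating type alpha was 39.9 CPM in both wild-type libraries, against 65.1 and 69.4 CPM in the mutant. Most of the alpha sum was SAG1, at 30.5 and 29.8 CPM in wild type and at 51.6 and 56.2 CPM in the mutant. Of the alpha markers, SAG1, which lies on chromosome X, was called higher, as was STE3, though STE3 lost its call without any 1 of the 4 libraries. The median log2 fold change was 0.72 over the alpha markers and 0.10 over the a markers. Called higher were 2 of 4 alpha markers and 1 of 6 a markers, beside 26.4% of all tested genes. Called lower were 0 alpha markers and 1 a marker, beside 24.3%. No alpha marker was at 0, the lowest being MF(ALPHA)1, an alpha-factor gene, at 0.27 to 0.87 CPM. It was not called (log2 fold change 1.00 ± 0.58 SE). Of the a markers AGA2 was called higher and STE2 lower, the latter call lost under 5 of 15 alternatives, and the part of either list in the results was not tested.

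Per length of gene, the 10 genes spanned a wide range of levels. In wild type OYE2 was the most abundant, at 488 ± 16.1 CPM per kilobase (SD, n = 2), followed by TRR1 at 443 ± 33.0. TRX2 at 188 ± 30.5 and GRX1 at 184 ± 5.26 came next and overlapped each other. GRX2 followed at 107 ± 3.22 and GSH1 at 51.5 ± 1.26 CPM per kilobase. GTT1 at 31.9 ± 2.57 overlapped GPX2 at 28.7 ± 2.80, and GPX2 overlapped GTT2 at 26.9 ± 4.13. OYE3 was far below the rest, at 1.95 ± 0.48 CPM per kilobase. In the mutant the order of the upper genes was the same, OYE2 standing at 415 ± 14.9, TRR1 at 385 ± 18.8, TRX2 at 336 ± 45.7 and GRX1 at 331 ± 4.88. TRX2 and GRX1 again overlapped. GRX2 stood at 170 ± 4.31, and GTT1, at 82.4 ± 0.96, was then just above GSH1 at 78.6 ± 3.05 CPM per kilobase. GPX2 was at 47.4 ± 0.24, GTT2 at 27.4 ± 0.98 and OYE3 still lowest at 6.63 ± 1.15 CPM per kilobase.

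**Figure D1:**
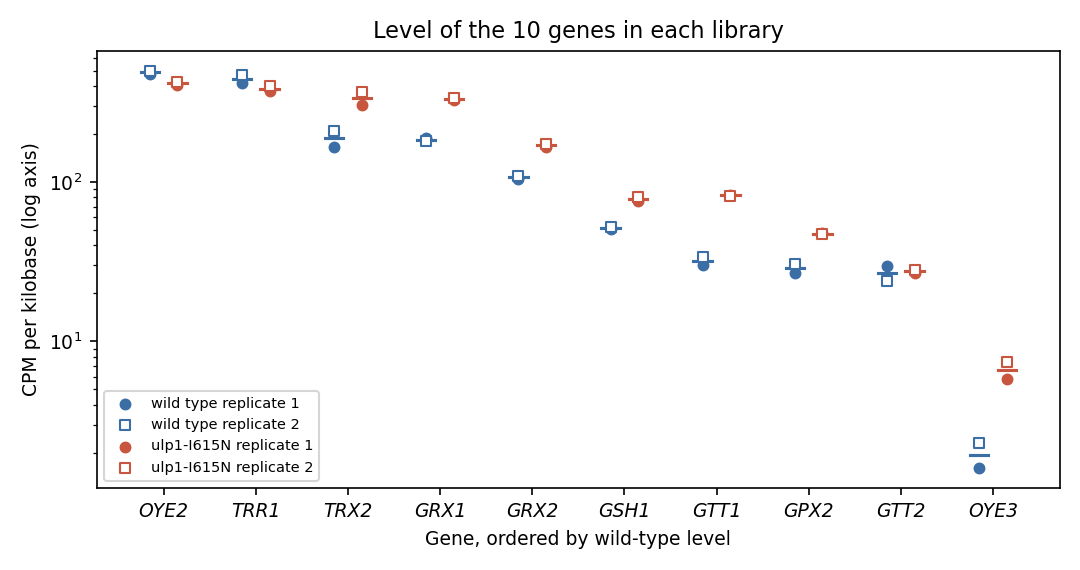
Level of each gene in CPM per kilobase of gene length (log axis) in the 4 libraries, with filled circles for replicate 1, open squares for replicate 2 and a short line for the mean of the group. Mutant points lie above both wild-type points for 7 genes, below them for OYE2 and TRR1, and overlap them for GTT2.

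Most of the genes were higher in the mutant. Of the 10, 7 were called higher (OYE3, GTT1, GRX1, TRX2, GPX2, GRX2 and GSH1), where 26.4% of the 6139 tested genes were, and 2 were called lower (OYE2 and TRR1), where 24.3% were (quasi-likelihood test of edgeR, p adjusted by Benjamini-Hochberg over all tested genes, threshold 0.05). GTT2 was not called. The median log2 fold change of the 10 was 0.69, beside 0.01 over all tested genes. The 10 were chosen with earlier results of these data known, so these comparisons are a description. For 9 of the 10 the 2 groups had no overlap, and this also held for 74.1% of all tested genes. GSH1 lies on chromosome X, whose genes were raised as a whole. Outside chromosome X, 6 of 9 members were higher, beside 22.2% of the 5766 tested genes there. Both mutant libraries carry the raised chromosome, so for these genes too the allele and the state of the chromosome cannot be told apart. Scaled by library totals alone, all tested genes had a median of 0.14 and the calls over all genes were 2192 higher and 855 lower in place of 1618 and 1489, while 7 of the 10 genes were higher and 0 lower.

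**Figure D2:**
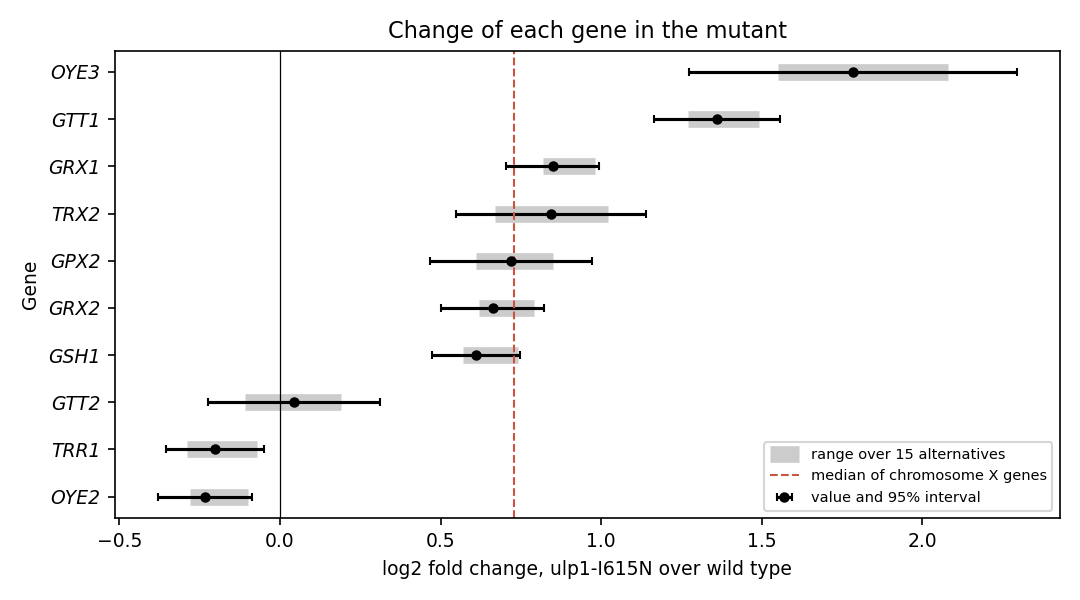
Log2 fold change of each gene in the mutant over wild type, with points for the value, black bars for its 95% interval and grey bands for the range over 15 alternative settings. The dashed line is the median of chromosome X genes, 0.73. OYE3 and GTT1 lie farthest to the right, and OYE2 and TRR1 lie just left of 0.

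The old yellow enzyme genes moved in opposite directions. OYE3 (YPL171C, chromosome XVI, 226169 to 227371 in sacCer3 coordinates) had 29 and 50 counts in wild type, or 1.93 and 2.75 CPM. In the mutant it had 98 and 248 counts, or 6.998 and 8.96 CPM. Both mutant libraries were well above both wild-type libraries. It rose 3.44-fold (log2 fold change 1.78 ± 0.24 SE, edgeR adjusted p = 2.37e-05), a change that 84 of the tested genes (1.37%) exceeded. OYE2 (YHR179W, chromosome VIII, 462502 to 463704), which encodes the abundant isoform, was at 574 and 601 CPM in wild type and at 487 and 512 CPM in the mutant. The groups did not overlap, and OYE2 fell by 0.23 ± 0.07 on the log2 scale (adjusted p = 0.0104). The call for OYE2 ended with library totals as the only scaling (-0.10, adjusted p = 0.191) and without mutant replicate 1 (-0.20, adjusted p = 0.107). The level of OYE3 relative to OYE2 went from 0.00337 and 0.00458 in wild type to 0.0144 and 0.0175 in the mutant, so OYE2 remained by far the more abundant transcript. The coding sequences are 73.5% identical with a longest shared run of 14 bases.

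Of the glutathione transferase genes, GTT1 was called higher and GTT2 was not called. GTT1 (YIR038C, chromosome IX, 423809 to 424513), the gene of a transferase of the endoplasmic reticulum membrane, was at 21.2 and 23.8 CPM in wild type and at 58.6 and 57.6 CPM in the mutant. Replicates lay close together in both groups. GTT1 rose 2.57-fold (log2 fold change 1.36 ± 0.09 SE, edgeR adjusted p = 3.37e-08), more than all but 166 of the tested genes (2.70%). GTT2 (YLL060C, chromosome XII, 21138 to 21839), the gene of the other transferase, was at 20.9 and 16.8 CPM in wild type and at 18.8 and 19.8 CPM in the mutant. The mutant values fell between the wild-type values, and GTT2 was not called (log2 fold change 0.05, 95% interval -0.22 to 0.31, adjusted p = 0.790). In wild type the transferase genes were near each other, with a ratio of GTT1 to GTT2 per length of 1.01 and 1.41, and in the mutant the ratio was 3.10 and 2.90. GTT1 lies 15.4 kb and GTT2 21.1 kb from the nearest chromosome end.

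In the thioredoxin route TRX2 was called higher and TRR1 lower. TRX2 (YGR209C, chromosome VII, 912913 to 913227), the cytosolic thioredoxin gene that responds to oxidants, was at 52.3 and 65.9 CPM in wild type and at 95.7 and 116 CPM in the mutant. The replicates of each group differed more for TRX2 than for GRX1 or GRX2, but the groups were well apart. TRX2 rose 1.79-fold (log2 fold change 0.84 ± 0.13 SE, edgeR adjusted p = 0.000854). Its paralog TRX1 was at 176 and 184 CPM in wild type and at 159 and 185 CPM in the mutant and was not called (-0.06, 95% interval -0.22 to 0.10). That value turned positive with library totals only, at 0.07, and without mutant replicate 1, at 0.04. Relative to TRX1 per length, TRX2 went from 0.294 and 0.356 in wild type to 0.598 and 0.621 in the mutant. TRR1 (YDR353W, chromosome IV, 1183299 to 1184258), the reductase that recharges both cytosolic thioredoxins, was at 403 and 448 CPM in wild type and at 357 and 382 CPM in the mutant. The nearest libraries of the groups were only slightly apart, and TRR1 fell by 0.20 ± 0.07 on the log2 scale (adjusted p = 0.0287). This call was lost under 5 of 15 alternatives. It was lost with library totals only (-0.07, adjusted p = 0.403), without wild type replicate 2 (-0.12, adjusted p = 0.198) and without mutant replicate 1 (-0.15, adjusted p = 0.200). The mitochondrial reductase gene TRR2 was at 0.12 and was not called (adjusted p = 0.245, and 0.0373 with library totals only).

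Both glutaredoxin genes rose. GRX1 (YCL035C, chromosome III, 60841 to 61173) was at 62.5 and 60.0 CPM in wild type and at 109 and 111 CPM in the mutant. It rose 1.80-fold (log2 fold change 0.85 ± 0.07 SE, edgeR adjusted p = 1.80e-07). GRX2 (YDR513W, chromosome IV, 1471017 to 1471448), whose protein is found in the cytosol and in mitochondria, was at 45.4 and 47.4 CPM in wild type and at 72.1 and 74.7 CPM in the mutant. It rose 1.58-fold (0.66 ± 0.08, adjusted p = 5.09e-06). For both genes the replicates were nearly equal and the groups were far apart. The ratio of GRX2 to GRX1 per length went from 0.560 and 0.608 in wild type to 0.509 and 0.516 in the mutant. GRX2 shares 47 bases with EMI1 (YDR512C) on the other strand. The counting took no account of strand and had no option to count overlapping features, so values of GRX2 are uncertain there.

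GPX2 (YBR244W, chromosome II, 707528 to 708016), the gene of a glutathione peroxidase that can also take electrons from thioredoxin, was at 13.05 and 14.98 CPM in wild type and at 23.3 and 23.1 CPM in the mutant. Both mutant libraries were above both wild-type libraries. GPX2 rose 1.65-fold (log2 fold change 0.72 ± 0.12 SE, edgeR adjusted p = 0.000147). The other peroxidase genes of the family were also higher. GPX1 rose 2.28-fold from a low level, 3.795 and 3.25 CPM in wild type to 7.64 and 8.20 CPM in the mutant (adjusted p = 0.000183). HYR1, which encodes the peroxide sensor that activates Yap1 and lies beside GTT1, was at 94.0 and 98.7 CPM in wild type and at 133 and 140 CPM in the mutant (0.50 ± 0.07, adjusted p = 1.75e-05). The ratio of GPX2 to HYR1 per length went from 0.140 and 0.153 in wild type to 0.176 and 0.166 in the mutant.

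GSH1 (YJL101C, chromosome X, 234320 to 236356), the gene of the rate-limiting ligase of glutathione synthesis, was at 103 and 107 CPM in wild type and at 156 and 164 CPM in the mutant. The groups were far apart, and GSH1 rose 1.53-fold (log2 fold change 0.61 ± 0.06 SE, edgeR adjusted p = 2.25e-06). Genes of chromosome X as a whole had a median log2 fold change of 0.73, with quartiles of 0.51 and 1.01, and 336 of the 373 tested there (90.1%) were called higher. GSH1 was 0.12 below that median, and 244 of the 373 (65.4%) had a larger value. The 20 nearest tested genes, 10 on each side, had a median of 0.78 and ran from 0.05 to 1.53. By library, GSH1 stood 0.57 and 0.65 above its wild-type mean on the log2 scale in mutant replicates 1 and 2, where the median chromosome X gene stood 0.72 and 0.73 above. Both mutant libraries carry the raised chromosome X. For GSH1, and for genes on other chromosomes too, the allele and the state of the chromosome cannot be told apart. GSH2, the gene of the next step of synthesis, which lies on chromosome XV, was at 179 and 189 CPM in wild type and at 195 and 198 CPM in the mutant and was not called (0.09, 95% interval -0.04 to 0.23, adjusted p = 0.220). GLR1, the gene of the reductase that regenerates glutathione, was also not called (0.12, adjusted p = 0.110). Both passed with library totals only, GSH2 at 0.23 (adjusted p = 0.00709) and GLR1 at 0.25 (adjusted p = 0.00281).

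A ratio of related genes inside a library does not depend on how libraries are scaled. In all 5 pairs compared the ratios of the groups did not overlap. Levels of single genes did not overlap for 74.1% of all tested genes, and the share over other pairs was not computed. The ratio of OYE3 to OYE2 was 4.04-fold higher in the mutant, that of GTT1 to GTT2 2.51-fold, that of TRX2 to TRX1 1.88-fold and that of GPX2 to HYR1 1.17-fold. That of GRX2 to GRX1 was 0.878 of the wild-type ratio. The largest difference between replicates was 0.48 on the log2 scale, for GTT1 to GTT2, whose groups differed by 1.33. Replicates differed by up to 0.13 for GPX2 to HYR1, whose groups differed by 0.23. For GRX2 to GRX1 the replicates differed by up to 0.12 and the groups by -0.19. With 2 against 2 libraries an exact two-sided permutation test cannot go below p = 0.333, which each pair reached. The coding sequences within a pair are 46.3% to 73.5% identical, with longest shared runs of 9 to 23 bases.

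**Figure D3:**
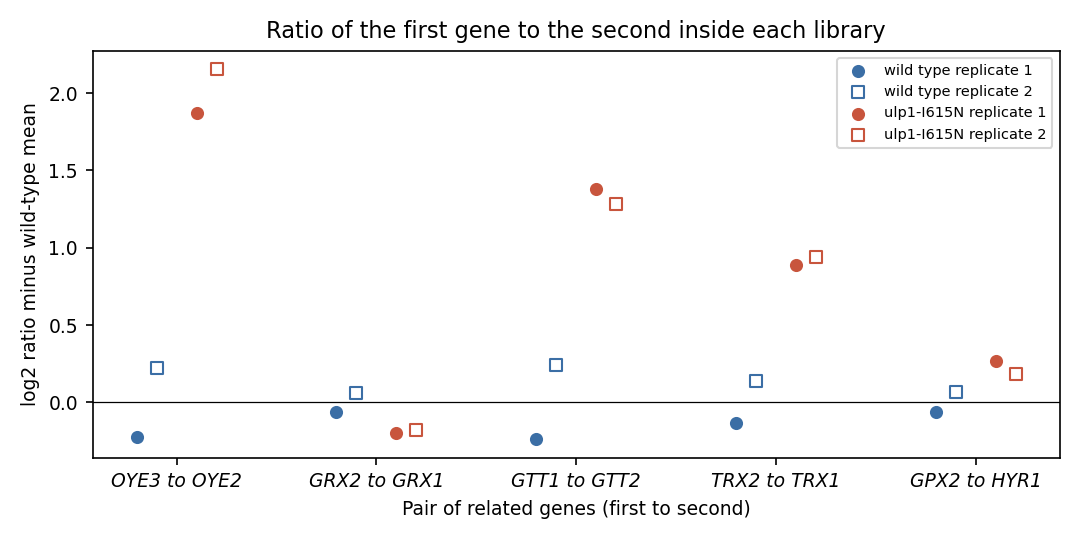
Log2 ratio of the first gene to the second inside each library, per length, minus the wild-type mean of that pair; circles are replicate 1 and squares replicate 2. The OYE3 to OYE2 ratio is about 2.01 higher in the mutant and the GTT1 to GTT2 ratio 1.33, whereas GRX2 to GRX1 is slightly lower.

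The rest of the glutathione genes were mixed. Of 24 other genes of glutathione synthesis, use, transport and breakdown, 11 were higher and 2 lower, and 11 were not called, beside 26.4% higher and 24.3% lower over all tested genes. Their log2 fold changes had a median of 0.14, beside 0.01 over all genes, and it was 0.08 without wild type replicate 1. Besides GPX1, the largest rises were those of the omega-class transferase genes GTO3 at 1.47 ± 0.22 and ECM4 at 1.11 ± 0.13, and of ECM38, the gene of the gamma-glutamyl transferase that breaks glutathione down, at 0.67 ± 0.08. The 2 lower genes were GRX4 at -0.57 ± 0.08 (edgeR adjusted p = 5.2e-05) and URE2 at -0.22 ± 0.08 (adjusted p = 0.0309). Only 1 gene was lower with TMM factors computed without chromosome X, and these 2 calls were not followed singly. Of the other glutaredoxin genes, GRX5 at 0.25, GRX6 at 0.29 and GRX7 at 0.39 were called higher. GRX3 at 0.02 and GRX8 at 0.04 were not called. With library totals only, the median was 0.27 and 14 were higher and 1 lower. Under that scaling all 6139 tested genes had a median of 0.14, with 2192 higher and 855 lower.

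Of 11 other thioredoxin-linked genes, the calls were 5 higher, 1 lower and 5 neither, against shares of 26.4% and 24.3% over all tested genes. Their median was 0.32. PRX1, the gene of the mitochondrial peroxiredoxin, rose from 24.5 and 22.6 CPM to 74.98 and 77.0 CPM (log2 fold change 1.69 ± 0.08, edgeR adjusted p = 2.43e-09). SRX1, the gene of the enzyme that repairs overoxidized peroxiredoxin, was at 1.26 ± 0.36 from 0.67 and 1.38 CPM in wild type. Its call was lost without wild type replicate 1 (0.86, adjusted p = 0.0897) and without mutant replicate 2 (1.11, adjusted p = 0.0879). The methionine sulfoxide reductase genes went opposite ways, MXR2 at 0.73 ± 0.10 and MXR1 at -0.68 ± 0.07. AHP1, the gene of an abundant thioredoxin peroxidase, was named after its values were seen. It was at 300.3 and 532 CPM in wild type and at 1238 and 1275 CPM in the mutant, and the spread of the wild-type libraries left it uncalled (1.59 ± 0.38, adjusted p = 0.0713). Over 15 alternatives its adjusted p ran from 1.97e-174 with the replicate block to 0.391, and 5 of them called it: DESeq2, limma-voom, the replicate block and the fits without either wild-type library. Without mutant replicate 2, the thioredoxin-linked genes called higher numbered 3 and the median was 0.20.

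Yap1 targets outside the 10 genes were mixed. Of 10 such genes, 5 of which are also in the glutathione or thioredoxin lists, 4 were higher, 2 lower and 4 not called, where 26.4% and 24.3% of all tested genes were higher and lower. The median was 0.34. Among the called genes SRX1 had the largest rise, followed by GRE2, the gene of a methylglyoxal reductase, at 0.63 ± 0.09, and CCP1, the gene of cytochrome c peroxidase, at 0.44 ± 0.06. ATR1, the gene of a multidrug efflux pump, was lower at -0.58 ± 0.08. Without mutant replicate 2 the counts were 2 higher and 1 lower and the median 0.22, and without wild type replicate 1 the median was 0.21.

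Genes listed under NADPH supply, on which the thioredoxin, glutathione reductase and old yellow enzyme reactions draw, were mixed in direction. The list also holds pentose phosphate genes whose enzymes do not make NADPH. Of 14, 8 were higher, 4 lower and 2 not called, beside all-gene shares of 26.4% higher and 24.3% lower. The median was 0.37, and 2 of the 8 lie on chromosome X. SOL4 and GND2, minor isoforms of the oxidative pentose phosphate steps, rose from 3.13 and 1.93 to 12.8 and 11.3 CPM and from 7.06 and 6.11 to 17.9 and 21.7 CPM. Their log2 fold changes were 2.26 ± 0.22 and 1.62 ± 0.15. The more abundant isoform genes of the same steps, SOL3 and GND1, were called lower, at -0.23 ± 0.06 and -0.245 ± 0.07. SOL3 was at 219 and 220 CPM in wild type and at 184 and 191 CPM in the mutant. GND1 was at 768 and 759 CPM in wild type and at 637 and 652 CPM in the mutant. Other abundant genes of the list went both ways, ALD6 and ZWF1 being called higher, TKL1 lower and TAL1 neither. ALD6 was at 1334 and 948 CPM in wild type and at 2033 and 1873 CPM in the mutant (0.78 ± 0.15). The log2 fold changes of ZWF1 and TKL1 were 0.18 ± 0.06 and -0.29 ± 0.08. IDP2, the gene of the cytosolic NADP isocitrate dehydrogenase, was at 1.01 ± 0.13. RKI1, the gene of ribose-5-phosphate isomerase, which does not make NADPH, was lower at -1.01 ± 0.06. Its call held under each of 15 alternatives, whereas the calls of SOL3 and GND1 were not followed singly. The count of lower genes was 2 with library totals only and 1 without mutant replicate 1.

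Among 7 regulators, 4 were higher, 1 lower and 2 not called, beside all-gene shares of 26.4% higher and 24.3% lower. The median was 0.23. One of the 4, CAD1, a relative of YAP1 named after its values were seen, had an adjusted p of 0.0495 in edgeR, and 3 regulators were higher under DESeq2, with its size factors in edgeR, with no filter on low counts, and without wild type replicate 1, mutant replicate 1 or mutant replicate 2. MSN4 rose from 38.3 and 35.9 CPM to 100.1 and 101 CPM (1.45 ± 0.07, edgeR adjusted p = 3.01e-09), whereas MSN2 was at 0.24 ± 0.06. YAP1 was at 193 and 182 CPM in wild type and at 250 and 236 CPM in the mutant (0.37 ± 0.06, adjusted p = 0.000225). SKN7, the gene of the partner activator of Yap1, was lower at -0.27 ± 0.06, and its call was lost with library totals only (-0.14, adjusted p = 0.0969).

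**Figure D4:**
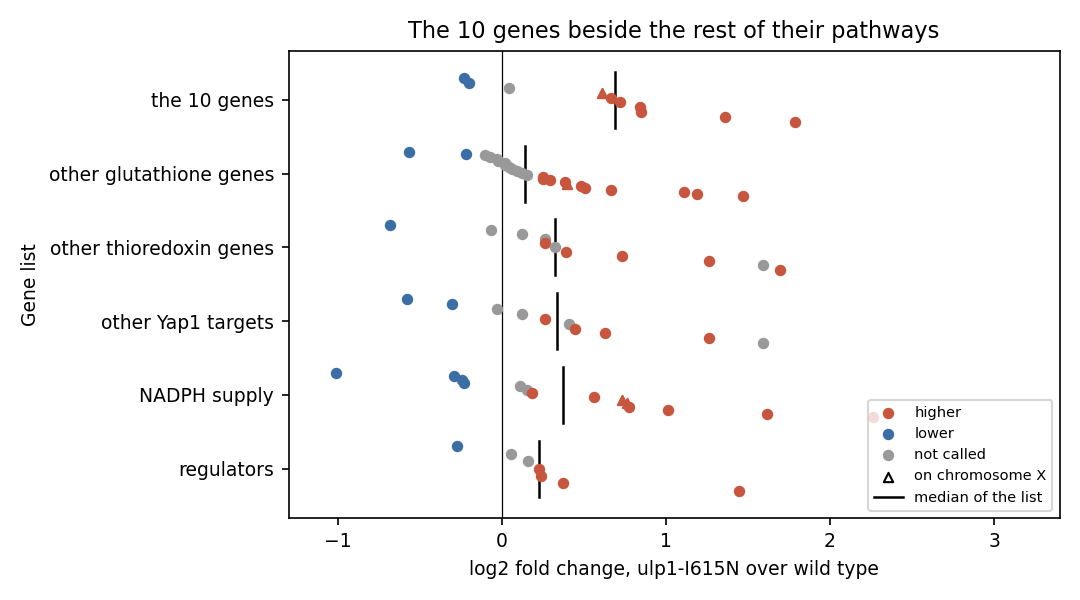
Log2 fold change of every gene of the 10 and of the other lists; points are coloured by the call, triangles lie on chromosome X and black bars are list medians. AHP1 and SRX1 are among the points drawn in both the thioredoxin and the Yap1 list. The median of the 10 genes is 0.69, and those of the 5 pathway lists drawn run from 0.14 to 0.37.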

How the data were processed

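Each group had 2 libraries. The deposited values are raw fragment counts, made by the authors with featureCounts 2.0.0 on read pairs, per the file headers, with no strand, multi-mapping or overlap option, although the kit was directional per the labels' protocols. Overlapping and antisense genes are therefore uncertain. The build sacCer3 and the tools Subread 2.0.0 and HISAT2 2.1.0 are listed, per the submitters' processing notes. Sample titles gave the groups and replicate numbers. For the annotation, a version was not given in the sources used here.

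The 10 genes, the other gene lists and the tests were chosen with earlier results of these data known. Counts of all genes were fitted with the quasi-likelihood test of edgeR 4.0.16 under R 4.3.3 (TMM scaling, robust, minimum count 10 and minimum total 15), with genotype as the only term, and p-values were adjusted by Benjamini-Hochberg over 6139 genes at 0.05. Alternatives used other scalings and filters, DESeq2 1.42.0, limma-voom (limma 3.58.1), thinning, the replicate number as a term and each library left out. The older quasi-likelihood method of edgeR was added after seeing the data. Replicates differed beyond sampling noise (chi-square per degree of freedom 9.20 and 8.42), and each library was counted as 1 sample. That spread may be technical and does not show that the libraries came from separate cultures. Of the library totals, 3 counts correspond to 0.112 to 0.227 CPM, for counting error only. Genes named beside the 10 were ULP1, the partners TRX1, TRR2, GSH2, GLR1, HYR1 and GPX1, and up to 4 called genes with the largest change in each list. AHP1, CAD1, URE2, MF(ALPHA)1, SOL3, GND1, ALD6, ZWF1, TKL1, TAL1 and the glutaredoxin genes GRX3 to GRX8 are outside that rule. The strain markers LYS1, ADE2 and ADE3 are outside it too. Symbols came from RefSeq R64 (6048 of 7126 features matched by locus tag).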

Additional observations from a re-analysis of the deposited data

How the results depend on the processing

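The 7 calls of higher genes among the 10 kept their direction and side of the threshold under each of 15 alternatives, and GSH1, for example, ran from 0.57 to 0.74. The 2 calls of lower genes were less stable. Their number was 0 with library totals only, 1 with TMM factors computed without chromosome X and 1 after thinning, and it ran from 0 to 2 with 1 library left out; the cause was not tested. GTT2 ran from -0.11 without wild type replicate 2 to 0.19 without wild type replicate 1. TRX1 was 0.0676 with library totals only, and ran from -0.183 to 0.0395 with 1 library left out. Library totals alone moved the median of all genes from 0.01 to 0.14 and the split of calls from 1618 higher and 1489 lower to 2192 and 855, so small falls are relative to that shift. Same-numbered libraries share a letter in their library names, and the labels do not say whether it marks a shared day or batch, so the numbers were not taken as pairs. With the replicate block 3435 genes were called in place of 3107, and 7 and 2 of the 10, and the correlation of deviations of same-numbered libraries was 0.131. With 1 library left out, the spread of the single library left is taken from the other group. SRX1 drops out of the fit restricted to a mean of 50 counts. OYE3 has the fewest counts of the 10 and the widest interval, 1.27 to 2.29.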
